A study of Mus musculus with 3 samples.

Results

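Ighm, IglV1, Ighe and Vpreb3 are 4 of the 16390 genes with a named probe on a mouse oligonucleotide array, and they were chosen by symbol as the immunoglobulin chain and surrogate light chain genes of interest. Each had 1 probe and 1 spot on each array. The annotation supplied for the array calls the Ighm probe (M200016349) Igh6 and the Ighe probe (M400000443) Gm900, which are older names of these genes in RefSeq, while IglV1 (M400007607) and Vpreb3 (M200000346) carry their own names. The sequences of the probes and the exons they read were not used here, and membrane and secreted Ighm transcripts were not separated.

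RNA came from 3 sorted populations of IL-10 Venus mice, whose fluorescent reporter labels Il10-expressing cells: Venus+ CD138hi cells of the bone marrow, Venus+ CD138hi cells of the spleen, and B220+ cells of the spleen. Plasma cells carry CD138, the proteoglycan syndecan-1, and B220 is a form of CD45 on B cells. The cells were freshly isolated, no treatment is named, and the sources used here give neither the age nor the number of the mice. The series' title speaks of IgM+ cells, but the sort labels name no gate on IgM. Whether selection for IgM had a part in the Ighm signal cannot be told from these labels.

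An antibody is built from paired heavy and light chains. The constant gene next to the rearranged variable segment sets the class: Ighm encodes the heavy chain of IgM, which every newly made B cell carries, and class switching can replace it with a gene further along the locus, such as Ighe for IgE. IglV1 is a variable segment of the lambda light chain. Vpreb3 belongs to the family of surrogate light chain proteins that stand in for a light chain early in B cell development, and unlike Vpreb1 it stays expressed in B cells that have left the marrow. Plasma cells are known for very high immunoglobulin transcript levels and for a switch of the heavy chain transcript to the secreted form.

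There was 1 array for each population and no replicates, so no difference has a test or a p-value and array and population cannot be told apart. A normalized signal is the spot's brightness less the mean of the array's blank spots, scaled so that the median of the detected probes is 25. A probe counted as detected at 2 SDs above the blank mean, a normalized signal of 2.35 in bone marrow Venus+, 1.74 in spleen Venus+ and 1.34 in B220+ cells. Before normalization, spots without a probe on the B220+ array had a median of 46.16 and a maximum of 56.03, against a limit of 46.21. On the bone marrow and spleen Venus+ arrays their medians were 42.93 and 41.16, against limits of 43.74 and 42.72. Detection near the limit, above all in B220+ cells, therefore does not set a probe apart from such spots. The error beside a log2 ratio is a spot error, from the blank spots and the 24 copies of each positive control, and it leaves out the spread between mice and sorts. A difference is called at 2-fold. Detected probes made up 67.6%, 73.4% and 72.1% of 23473 on the same arrays in the same order.

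The sorts carried the markers of their labels. Of 6 plasma cell markers with a probe, 6 were detected in bone marrow and in spleen Venus+ cells and 5 in B220+ cells, with summed signals of 18362, 14594 and 690.1. Mature B cell markers summed to 4206, 10149 and 27626 on the same arrays, and of their 7 genes with a probe 5, 6 and 7 were detected. Pax5 was not detected in bone marrow Venus+ cells, Cr2 in neither Venus+ sort, and the plasma cell receptor gene Tnfrsf17 not in B220+ cells. Neutrophil markers summed to 202.8 in bone marrow Venus+, 14.5 in spleen Venus+ and 4929 in B220+ cells. T cell markers summed to 1165, 773.3 and 40.8, of which Cd247 held most (1038, 637 and 15.7), and monocyte and macrophage markers to 271.8, 138.4 and 71.4. Their part in the results below was not tested.

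Ighm, the IgM heavy chain gene, had a normalized signal of 8234 in bone marrow Venus+ cells and 2433 in spleen Venus+ cells, against 10.97 in B220+ cells. The arrays lay in a clear order, bone marrow over spleen over B220+, and the dim B220+ spot was still detected: it stood 16.4 blank SDs above the blank mean, and 0 of 2736 blank spots and 0 of 1102 spots without a probe on that array were brighter. In these bulk samples, fewer cells with a transcript and less of it per cell cannot be told apart. Membrane and secreted forms were not separated, so the ratios are those of this probe, and the part of either form was not tested. The ratio over B220+ was 9.55 ± 0.16 on the log2 scale for bone marrow Venus+ cells (751-fold) and 7.79 ± 0.16 for spleen Venus+ cells (222-fold). Only 1 of 10813 genes detected on both arrays had a larger ratio in the bone marrow comparison, and 4 of 11618 in the spleen comparison. With the normexp background, which draws dim spots together, the log2 ratios were 7.22 and 5.66.

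Between the Venus+ sorts, Ighm was 3.38-fold higher in bone marrow than in spleen (log2 ratio 1.76 ± 0.11), and 86 of 11352 genes had a larger ratio. The median of all genes in that comparison was -0.17, so Ighm lay 1.93 above it. With local background in place of the blank level the ratio was 3.18, and that of spleen Venus+ over B220+ cells 6.16. The local background of the Ighm spot itself read 1334 in bone marrow Venus+, 1992 in spleen Venus+ and 45.6 in B220+ cells. Before normalization the spots around Ighm had a median of 41.1 in bone marrow Venus+, 40.6 in spleen Venus+ and 44.7 in B220+ cells. The brightest of the 8 was higher in B220+ cells (1484) than in bone marrow (613.6) or spleen Venus+ cells (798.6). The part of the surroundings in the Ighm signal was not tested.

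Ighe encodes the heavy chain of IgE, and bone marrow Venus+ cells were the only sort of the 3 in which its probe was detected. Its normalized signal was 73.3 there, 62.3 blank SDs above the blank mean, with no blank spot and no spot without a probe brighter. The same probe lay at the blank level in spleen Venus+ cells (-0.34) and in B220+ cells (-1.51), where 1606 and 2700 of the 2736 blank spots were brighter. Bone marrow Venus+ cells were therefore at least 54.5-fold higher than B220+ cells and at least 42.2-fold higher than spleen Venus+ cells, counting the dim array at its lowest detected signal, and it was not detected on either array of the comparison between spleen Venus+ and B220+ cells. The bounds were 2.94-fold and 2.52-fold with a normexp background, which adds an offset to each spot, and 25.5-fold and 13.4-fold with each spot's local background, which for Ighe read 74.3 under a spot of 119.1 in bone marrow Venus+ cells.

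Such a pattern was uncommon. Of 16390 genes, 129 (0.787%) were detected on the bone marrow Venus+ array alone, and 1 of these 129 (0.775%), Ighe itself, had a probe signal as high as 73.3. Taking for each gene the smaller of its bounds over the other arrays, Ighe came first of 129 with 42.2-fold, and the next was Usp2, a ubiquitin-specific protease gene, with 9.62-fold. The brightest spot next to Ighe was that of Mrps12 on each array, at 460.1 in bone marrow Venus+, 421.6 in spleen Venus+ and 450.7 in B220+ cells. The median of the 8 surrounding spots was 46.7, 42.2 and 42.7. Both were highest on the bone marrow array, as was Ighe, and their part in the Ighe signal was not tested.

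Ighm and Ighe lie in one row of heavy chain constant genes. In the RefSeq order the 8 genes run Ighm, Ighd, Ighg3, Ighg1, Ighg2b, Ighg2c, Ighe and Igha, with Ighm nearest the variable segments and Ighe the seventh. Only these 2 had a named probe, so IgD, IgG and IgA transcripts are not described here. The nearest measured genes past Igha were not highest in bone marrow Venus+ cells, unlike Ighm and Ighe. Crip1, a LIM domain gene, had signals of 506 in bone marrow Venus+ and 1975 in spleen Venus+ cells, against 1621 in B220+ cells. Tmem121 had 5.96 and 8.16, against 12.1, Tedc1 3.11 and 6.96, against 7.055, and Mta1 9.08 and 14.9, against 16.7. Crip2 was higher in spleen Venus+ (13.2) than in B220+ cells (2.40), as was Ighm, but was not detected in bone marrow Venus+ cells. On the variable side, the nearest was Adam6b, at 60.0 and 45.7 against 38.6.

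Other IgE genes were read beside Ighe. Fcer1a, the alpha chain of the high-affinity IgE receptor, was detected on none of the 3 arrays, and Ms4a2, its beta chain, in B220+ cells alone (4.13). Fcer1g, a signalling chain shared with other Fc receptors, had 165 in bone marrow Venus+ and 91.6 in spleen Venus+ cells, against 34.9 in B220+ cells. Fcer2a, the low-affinity IgE receptor CD23 of mature B cells, had 166 and 62.4, against 349. Basophils and mast cells bind IgE, and markers of these cells and of eosinophils summed to 300.7 in bone marrow Venus+, 160.6 in spleen Venus+ and 74.4 in B220+ cells, with 6, 6 and 5 of 9 genes detected. Of these, Mcpt8, a basophil protease gene, had 143, 43.0 and 17.5, Prg3 37.5, 21.1 and 2.21, and Cpa3 4.85, 4.72 and 1.84. Gata2 (43.2 and 19.1) and Kit (35.8 and 36.0) passed the limit on each Venus+ array and not on the B220+ array. Prss34, another protease gene among these markers, was like Ms4a2 highest in B220+ cells (36.0, 36.7 and 48.7). Epx, an eosinophil peroxidase gene, was detected on none. Prg2, read here as a plasma cell marker and also an eosinophil granule gene, had 6082, 4646 and 3.84. The part of such cells in the Ighe signal was not tested.

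IglV1, the lambda variable segment, was bright on each array, with 28942 in bone marrow Venus+ cells and 33922 in spleen Venus+ cells, against 6227 in B220+ cells. Both Venus+ arrays stood above B220+, and they differed little from each other. The log2 ratio over B220+ was 2.22 ± 0.13 in bone marrow Venus+ cells (4.65-fold) and 2.45 ± 0.14 in spleen Venus+ cells (5.45-fold). The ratio of bone marrow over spleen Venus+ cells was -0.23 ± 0.11, under 2-fold and -0.05 relative to the median of all genes, and its sign turned with the scaling (0.10 when probes detected on all 3 arrays set the scale).

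The IglV1 spots lay in the upper part of the scanner's range on the Venus+ arrays. They read 30783 in bone marrow Venus+ and 43613 in spleen Venus+ cells before normalization, which is 47.0% and 66.5% of the ceiling of 65535, against 11932 (18.2%) in B220+ cells. On the Venus+ arrays both were among the 19 and 14 spots that the files list as whole numbers, a form seen only at readings of 30316 or more in bone marrow and 31680 or more in spleen, while the B220+ value has decimals like the rest of its range. How the scanner joined its gains at such readings is not stated in those sources, and its part in the IglV1 ratio was not tested. The local background of the spot was high too, at 12075 in bone marrow Venus+ and 16968 in spleen Venus+ cells, against 3410.5 in B220+ cells, and with it in place of the blank level both log2 ratios over B220+ were 1.86.

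The Ighm and IglV1 probes therefore did not change by like amounts. Apart from surrogate light chain genes, IglV1 was the only light chain gene with a named probe, so light chains as a whole are not described here. The log2 ratio of Ighm exceeded that of IglV1 by 7.34 ± 0.21 for bone marrow Venus+ over B220+ cells, by 5.35 ± 0.21 for spleen Venus+ over B220+ cells and by 1.99 ± 0.16 for bone marrow over spleen Venus+ cells. These are differences between ratios of separate probes, and no level of one probe was set against another.

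**Figure D1:**
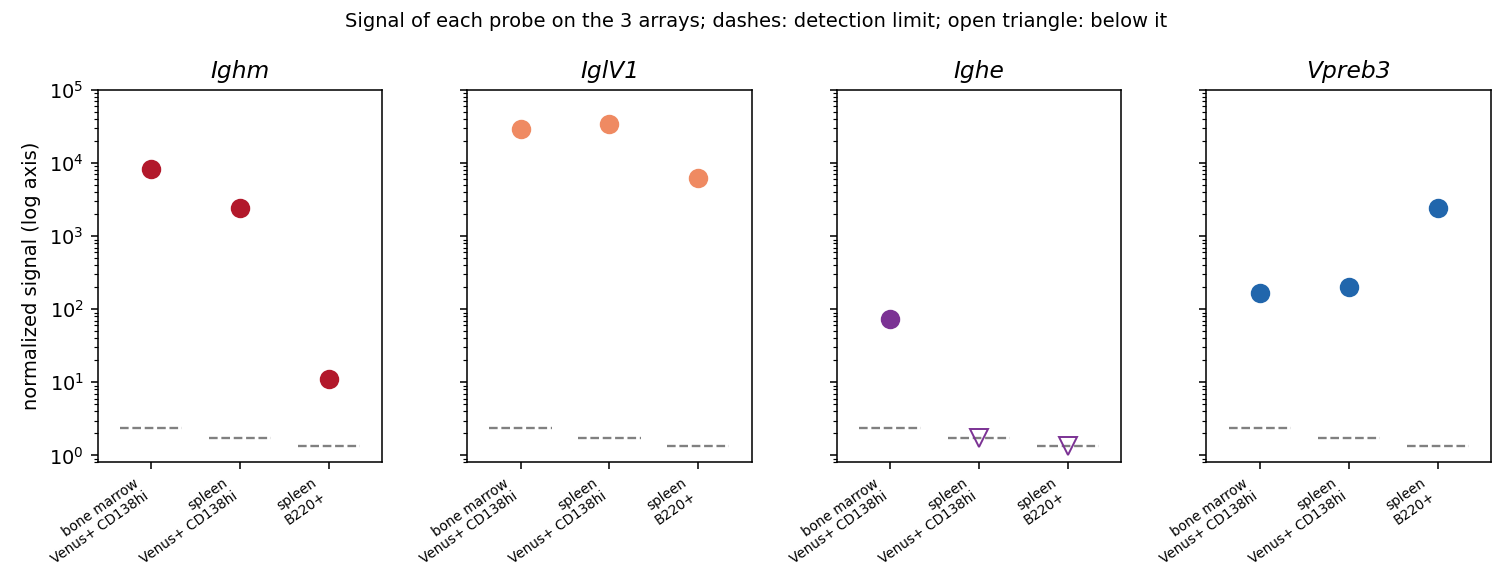
Normalized signal (log axis) of the probes of Ighm, IglV1, Ighe and Vpreb3 in bone marrow Venus+ CD138hi, spleen Venus+ CD138hi and spleen B220+ cells, 1 array each; dashes mark each array's detection limit and open triangles a probe below it. Ighm spans 8234 to 10.97, Ighe is above the limit in bone marrow Venus+ cells alone, and Vpreb3 has its highest signal in B220+ cells (2397).

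Vpreb3 ran the other way. Its normalized signal was 168.1 in bone marrow Venus+ cells and 199.7 in spleen Venus+ cells, against 2397 in B220+ cells. Both Venus+ arrays were far below B220+ and close to each other. Before normalization the spot read 219.8 in bone marrow Venus+ and 297.0 in spleen Venus+ cells, against 4620 in B220+ cells, and its local background 171.8 and 241.3, against 4671. In B220+ cells the local background thus exceeded the spot, and no ratio over B220+ could be had with it. The 5 spots around Vpreb3 were raised as well, with a median of 118.3 and 178.4, against 219.1, and a brightest spot of 183.8 and 242.0, against 267.5. The probe passed the detection limit on the Venus+ arrays, but its spots there stood little above their surroundings, and the part of the raised surroundings in the Vpreb3 signal was not tested. The log2 ratio over B220+ was -3.83 ± 0.13 in bone marrow Venus+ cells (14.3-fold lower) and -3.59 ± 0.14 in spleen Venus+ cells (12.0-fold lower). In the spleen comparison 30 of 11618 genes had a lower ratio, and in the bone marrow comparison 163 of 10813. Bone marrow over spleen Venus+ cells gave -0.25 ± 0.11, which is -0.07 relative to the median of all genes and turned to 0.08 with the other scaling.

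The other surrogate light chain genes with a probe stayed near the detection limit. Vpreb1 had 3.66 in spleen Venus+ and 3.32 in B220+ cells and was not detected in bone marrow Venus+ cells (1.90), and Vpreb2 had 1.94 and 2.67 and was not detected there either (1.55). Spleen Venus+ over B220+ cells gave 0.14 ± 0.47 for Vpreb1 and -0.47 ± 0.75 for Vpreb2, both within their spot error. The recombinase genes Rag1 and Rag2 and the terminal transferase gene Dntt, which are active while B cells assemble their receptor genes, were detected on none of the 3 arrays. Of the pre-B markers, Cd93 was detected on each array, at 135 in bone marrow Venus+ and 171 in spleen Venus+ cells, against 98.1 in B220+ cells. Of 13 genes of this stage with a probe, 8 were measured in both spleen Venus+ and B220+ cells, with 0 at least 2-fold higher and 1 lower (Ebf1, -1.36), and 3 on the bone marrow Venus+ and B220+ arrays, with 0 higher and 1 lower (Cd24a, -1.45). Among all genes 15.7% were higher and 16.5% lower in the spleen comparison, and 22.4% and 30.7% in the bone marrow comparison. A further 6 were detected in B220+ and not in bone marrow Venus+ cells, among them Lef1, at least 4.02-fold lower there. The bounds of the others were under 2-fold, and Bok (2.30 in B220+ cells) lay below the bone marrow detection limit, so no difference is shown for Bok. Mme was detected in bone marrow Venus+ and not in B220+ cells, at least 3.77-fold higher. Since Rag1, Rag2 and Dntt were detected on no array, these data do not show whether their probes can report the transcript. The part of early B cells in the Vpreb3 signal of B220+ cells was not tested.

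Of the members, only Vpreb3 had an entry in the RefSeq promoter table (build GRCm38.p6), which holds the 250 bases before and 50 after a gene's start. Its window, chr10:75948050-75948349 on the plus strand, is shown beside that of Vpreb1, chr16:16869206-16869505 on the minus strand, a relative whose probe stayed near the detection limit. Capitals mark the octamer ATTTGCAT, the element that many immunoglobulin promoters carry for the POU factors Oct-1 and Oct-2, searched on both strands (ATGCAAAT on the other).
Vpreb3: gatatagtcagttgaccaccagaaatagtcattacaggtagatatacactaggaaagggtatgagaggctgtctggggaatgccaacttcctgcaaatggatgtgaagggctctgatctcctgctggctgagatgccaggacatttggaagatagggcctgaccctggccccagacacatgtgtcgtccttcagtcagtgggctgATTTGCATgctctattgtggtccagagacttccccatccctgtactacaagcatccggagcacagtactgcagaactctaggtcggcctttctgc
Vpreb1: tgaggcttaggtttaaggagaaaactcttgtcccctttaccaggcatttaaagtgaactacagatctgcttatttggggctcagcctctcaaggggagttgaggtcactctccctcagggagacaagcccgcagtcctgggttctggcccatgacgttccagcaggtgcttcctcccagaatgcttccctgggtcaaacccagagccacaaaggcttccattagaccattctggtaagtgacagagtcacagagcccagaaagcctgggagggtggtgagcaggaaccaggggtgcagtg
The Vpreb3 window held 1 octamer, on the gene's own strand, with its first base 45 bases before the start, and the Vpreb1 window held 0. Among all 32851 windows of this length, 570 (1.74%) held the octamer on either strand. The windows of Vpreb2, Igll1, Jchain and Cd79a held 0. A match is a description of letters and says nothing of binding.

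On the arrays, the genes of the octamer factors differed less from B220+ cells than Vpreb3 did. Pou2f1 (Oct-1) had 45.0 in bone marrow Venus+ and 48.9 in spleen Venus+ cells, against 43.7 in B220+ cells. Pou2f2 (Oct-2) had 19.2 and 31.0, against 37.5, and their co-activator gene Pou2af1 had 675 and 1232, against 1111. None of these reached 2-fold in either comparison with B220+ cells. These are transcript signals, and the part of the factors in the Vpreb3 signal was not tested.

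Vpreb3 also differed from the genes beside it on its chromosome, a set chosen after the members' values had been seen. Of the nearest genes with a named probe, 5 on each side, the highest over B220+ was Derl3, which acts in the degradation of misfolded ER proteins, with 2796 in bone marrow Venus+ and 2375 in spleen Venus+ cells, against 15.8 in B220+ cells (log2 ratios 7.47 ± 0.15 and 7.23 ± 0.15). Chchd10, a mitochondrial protein gene, lies between Derl3 and Vpreb3 and stood at 0.35 ± 0.14 and 0.36 ± 0.14. S100b was also at least 2-fold higher in both (1.82 ± 0.16 and 1.14 ± 0.17). Among neighbours detected on both arrays the lowest ratio over B220+ was -1.94 ± 0.43, for Mmp11 in spleen Venus+ cells, and -1.88 ± 0.14, for Smarcb1 in bone marrow Venus+ cells. In bone marrow Venus+ cells Mmp11 was not detected, which makes it at least 5.08-fold lower there.

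**Figure D2:**
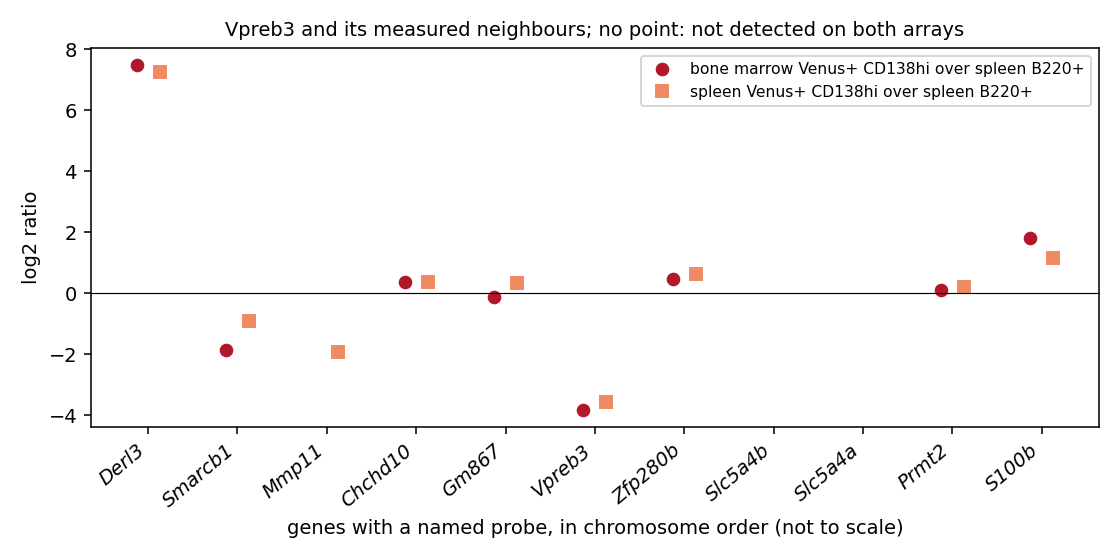
Log2 ratio over spleen B220+ cells of Vpreb3 and its nearest 5 measured genes on each side, in chromosome order and not to scale; circles are bone marrow and squares spleen Venus+ CD138hi cells. Among the genes detected on both arrays Vpreb3 has the lowest ratio (-3.83 and -3.59) and Derl3 the highest (7.47 and 7.23).

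Taking the members as a set, 2 of the 3 detected on both arrays (Ighm and IglV1) were at least 2-fold higher in spleen Venus+ than in B220+ cells, where 15.7% of 11618 genes were, and 1 (Vpreb3) was at least 2-fold lower, where 16.5% were. In bone marrow Venus+ against B220+ cells the same 3 calls held beside backgrounds of 22.4% higher and 30.7% lower of 10813 genes, and Ighe was higher by its bound. Between bone marrow and spleen Venus+ cells, 1 of 3 (Ighm) was at least 2-fold higher, where 4.33% of 11352 genes were, 0 were lower, where 15.2% were, and Ighe was again higher by its bound. The 2 comparisons with B220+ cells share that array, so they are no separate support for each other. Relative to the median of all genes, -0.24 for bone marrow and -0.02 for spleen Venus+ over B220+ cells, the ratios were 9.80 and 7.81 for Ighm, 2.46 and 2.46 for IglV1, and -3.59 and -3.57 for Vpreb3.

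The split of all called genes depends on the scaling. Of the genes called between bone marrow Venus+ and B220+ cells, 42.2% lay on the higher side, and 53.9% when probes detected on all 3 arrays set the scale. For bone marrow over spleen Venus+ cells the shares were 22.2% and 57.7%. The 3 members' calls over B220+, and that of Ighm between the Venus+ sorts, were the same under that scaling.

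The genes nearest to each member in the plane of the ratios over B220+ differed in kind. The measure was the Euclidean distance in log2 units over these 2 ratios, from 3 arrays, among 10768 other genes detected on all 3. Nearest to Ighm were Tmem176a, a membrane protein gene (distance 0.21), the sulfotransferase gene Chst1 (0.51), the phospholipase gene Pla1a (0.87), Tent5c, a poly(A) polymerase gene (1.17), and Stard9 (1.22), and 3 genes in all lay within 1 log2 unit. Tmem176a had 2687 in bone marrow Venus+ and 764 in spleen Venus+ cells, against 3.89 in B220+ cells. Nearest to Vpreb3 were Satb1, a chromatin organiser gene (0.16), Rhbdf2 (0.29), Zfp318 (0.33), Lmo2 (0.34) and Dipk1a (0.35), with 38 genes within 1 unit. IglV1 lay in a crowded region with 548 genes within 1 unit, the nearest being Cilk1 (0.05), Tnfsf8 (0.09), Slc6a9 (0.09), Prpf40b (0.12) and Gcat (0.17).

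**Figure D3:**
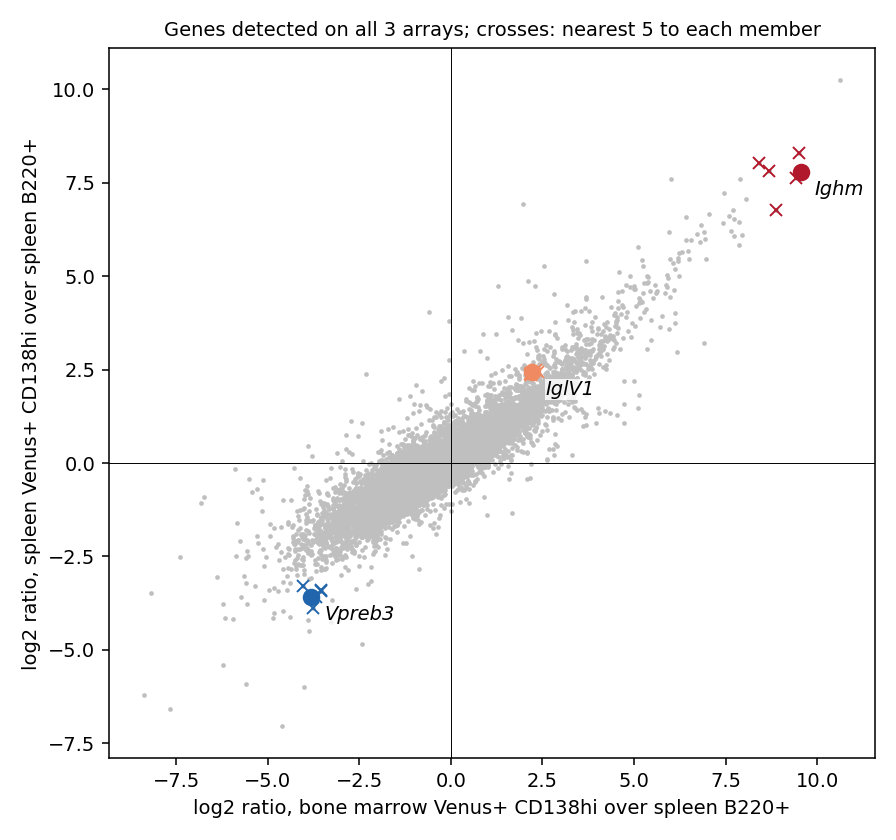
Log2 ratio of bone marrow (x) and of spleen (y) Venus+ CD138hi cells over spleen B220+ cells for the 10769 genes detected on all 3 arrays; both axes share the B220+ array. Large points are Ighm, IglV1 and Vpreb3 and crosses the 5 genes nearest to each. Ighm lies at the upper right end (9.55, 7.79), IglV1 inside the main cloud and Vpreb3 at its lower left.

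Zfp318, near Vpreb3 in this plane, acts on the same transcript as Ighm, since it lets B cells splice through to Ighd. It had 9.57 in bone marrow Venus+ and 10.5 in spleen Venus+ cells, against 112 in B220+ cells. It belongs to 19 genes of membrane to secretory processing of the heavy chain transcript, of which 17 were measured in both cells of each comparison with B220+. Among them, 5 were at least 2-fold higher and 12 lower in bone marrow Venus+ cells, beside 22.4% and 30.7% of all genes, and 4 higher and 7 lower in spleen Venus+ cells, beside 15.7% and 16.5%. The higher ones included Ell2, an elongation factor that favours the secretory poly(A) site, with 94.9 and 84.6 against 13.3, and its partners Eaf1 (115 and 53.8 against 6.60) and Eaf2 (2001 and 1889.5 against 139). Hnrnpll, a splicing factor of plasma cells, was detected at 15.6 and 15.8 and not in B220+ cells. The lower ones besides Zfp318 included Pcf11 (16.7 and 47.2 against 165), Hnrnph1 (303 and 718 against 2150.0) and the polyadenylation factor gene Cpsf2 (67.9 and 88.5 against 310.0). Aff4 (4.07 and 6.68 against 21.5) and Cstf2 (24.3 and 40.8 against 98.7) were also lower, unlike Ell2, Eaf1 and Eaf2.

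Ighm protein is folded and assembled in the ER, and most measured genes of a list of ER folding and assembly were higher over B220+ cells. The list holds general ER genes, such as Calr, Canx and Derl3, beside those of IgM assembly. Its counts are therefore not particular to IgM. Jchain, which joins IgM polymers, had no named probe and is not analysed here. Of 24 measured genes of this list, bone marrow Venus+ cells had 22 at least 2-fold above B220+ cells and 1 below. The median log2 ratio was 2.22, against -0.24 for all genes, and 22.4% of all genes were above. In spleen Venus+ cells 22 were higher and 0 lower (median 1.96, against -0.02), where 15.7% of all genes were higher. Canx, a lectin chaperone, did not reach 2-fold in either (-0.09 and 0.34). Mzb1, a chaperone of IgM assembly, had 14702 in bone marrow Venus+ and 15172 in spleen Venus+ cells, against 1689 in B220+ cells, and the heavy chain chaperone gene Hspa5 (BiP) had 8549 and 7266, against 1794. Erp44, which retains unassembled IgM, had 541 and 414 against 178, and Ero1a, an ER oxidase, was the lower one (11.1 and 24.0 against 27.2). Between the Venus+ sorts, bone marrow had 2 higher, Prdx4 (1.06 ± 0.11) and Lman1, just past 2-fold, and 1 lower, with a median of 0.36, against -0.17 for all genes, while Ighm stood at 1.76.

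Most measured signalling partners of membrane immunoglobulin were lower. Of 7 measured in both cells, bone marrow Venus+ cells had 5 at least 2-fold below B220+ cells and 1 above, beside 30.7% and 22.4% of all genes, and spleen Venus+ cells 5 below and 0 above, beside 16.5% and 15.7%. Syk, a kinase of the receptor, did not reach 2-fold in either (-0.86 and -0.41). Cd79a and Cd79b, which anchor the receptor to its kinases, had 159 and 3509.7 in bone marrow Venus+ and 252 and 7075 in spleen Venus+ cells, against 695 and 15335 in B220+ cells. Cr2, the complement receptor of mature B cells, was detected in B220+ cells alone (102). Cd81 was the gene above B220+ in bone marrow, with 1887 and 1491 against 892.

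Class-switching genes are read beside Ighe and Ighm because switching removes Ighm from the locus. Of 22 measured in both cells, bone marrow Venus+ cells had 16 at least 2-fold below B220+ cells and 2 above (median -1.13), beside 30.7% and 22.4% of all genes. Of 23 in spleen Venus+ cells 4 were lower and 1 higher (median -0.59), where 16.5% of all genes were lower, so the share of lower genes was near that of all genes. Bone marrow Venus+ cells had, over spleen Venus+ cells, 8 lower and 0 higher of 22, beside 15.2% lower among all genes. Il4ra and Stat6, which carry the IL-4 signal that directs switching to Ighe, had 27.0 and 11.0 in bone marrow Venus+ and 85.5 and 36.5 in spleen Venus+ cells, against 410.3 and 45.0 in B220+ cells. Nfil3, a factor linked to IgE switching in mice, was the largest of the higher genes, at 24.2 and 32.1 against 3.70.

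Factors that bind immunoglobulin enhancers and promoters went both ways. Bone marrow Venus+ cells had 4 of 22 at least 2-fold above B220+ cells and 10 below, beside 22.4% and 30.7% of all genes, and spleen Venus+ cells 5 of 23 above and 7 below, beside 15.7% and 16.5%. Xbp1 (8402 and 7174 against 354), Prdm1 (34.4 and 81.5 against 8.72) and Irf4 (688 and 1128 against 321) were at least 2-fold higher over B220+, as was Ighm, and Irf8 (50.2 and 127 against 848) and Runx1 (3.75 and 9.91 against 65.7) lower, as was Vpreb3. Between the Venus+ sorts Prdm1 was at least 2-fold lower in bone marrow (log2 ratio -1.24), where Ighm was higher (1.76). Irf4 (-0.71) did not reach 2-fold, and the median of all genes was -0.17. Pax5, which holds B cell identity, was not detected in bone marrow Venus+ cells, where Ighm was highest, and had 21.3 in spleen Venus+ and 164 in B220+ cells.

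Receptors of secreted antibody included the gene with the largest ratio between the Venus+ sorts among the listed genes detected on both. Fcmr, the IgM Fc receptor, had 219 in bone marrow Venus+ and 3418 in spleen Venus+ cells, against 3011 in B220+ cells, so it was lower in bone marrow than in spleen Venus+ cells (log2 ratio -3.96 ± 0.11), where Ighm was higher. Pigr, which carries polymeric IgM and IgA across epithelia, had 97.4 and 97.6, against 41.4. Of 13 in the list, 10 were measured in bone marrow Venus+ and B220+ cells (2 at least 2-fold higher and 4 lower, beside 22.4% and 30.7% of all genes) and 9 in spleen Venus+ and B220+ cells (2 higher and 4 lower, beside 15.7% and 16.5%).

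Between bone marrow and spleen Venus+ cells, where 4.33% of all genes were at least 2-fold higher and 15.2% lower, the counts were 0 higher and 2 lower of 7 membrane partners, 1 and 5 of 18 processing genes, 1 and 2 of 9 receptors and 0 and 7 of 22 enhancer and promoter factors. The pre-B stage had 1 and 0 of the 4 detected on both arrays. A further 5 (Vpreb1, Vpreb2, Erg, Lef1 and Bok) were detected in spleen Venus+ and not in bone marrow Venus+ cells. Lef1 was at least 3.74-fold lower in bone marrow, while the bounds of Vpreb1 (1.56-fold) and Erg (1.73-fold) were under 2-fold. The spleen Venus+ signals of Vpreb2 (1.94) and Bok (2.26) lay below the higher detection limit of the bone marrow array. No difference is therefore shown for Vpreb2 and Bok. With probes detected on all 3 arrays setting the scale, the companion genes as a whole went to 8 higher and 16 lower, against 5 and 25 in the usual setting.

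**Figure D4:**
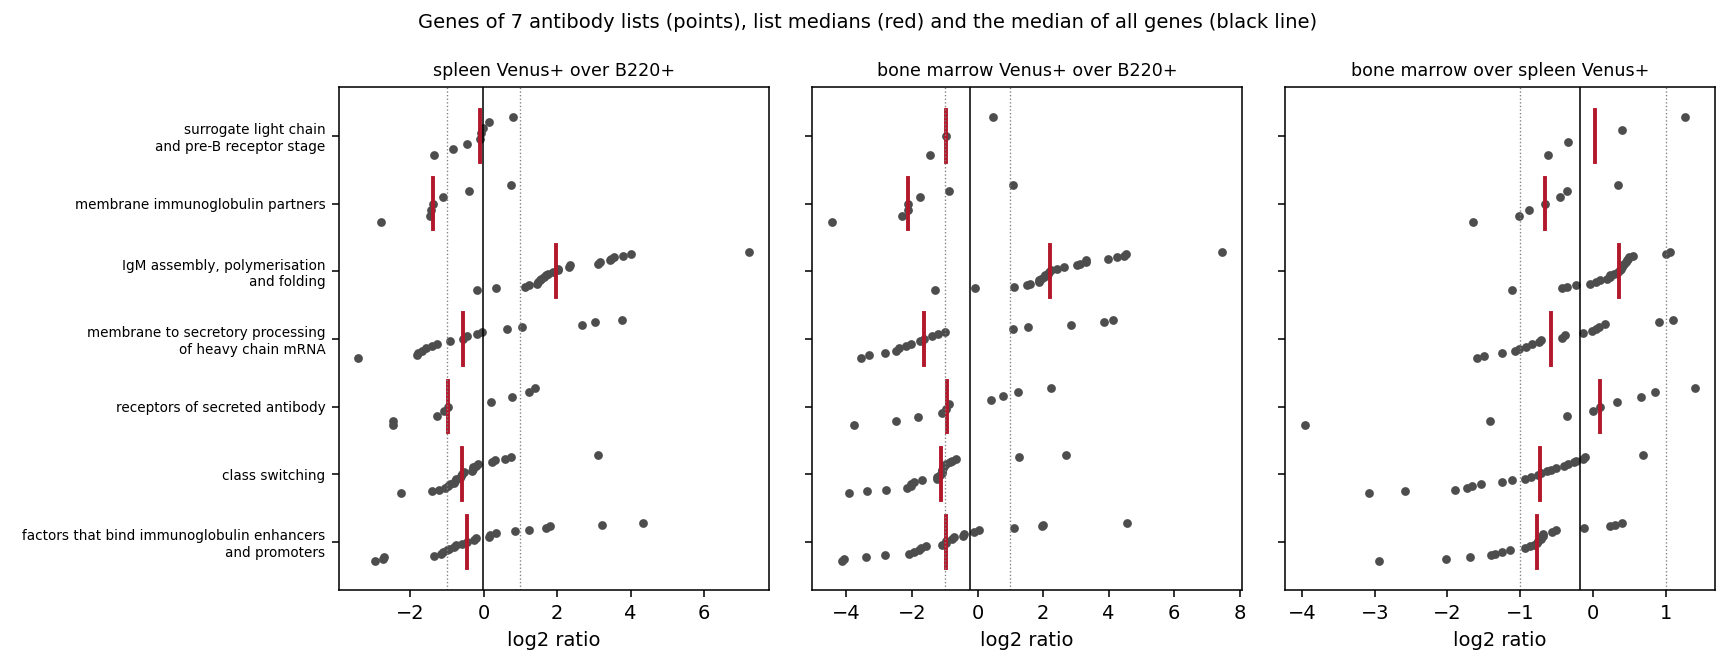
Log2 ratios (x) of genes of 7 antibody lists (rows, 1 point a gene detected on both arrays), with the list median in red, the median of all genes as a black line and 2-fold as dotted lines, for spleen Venus+ over B220+, bone marrow Venus+ over B220+ and bone marrow over spleen Venus+ cells. The assembly and folding genes are the list that lies to the right over B220+ (medians 2.22 in bone marrow and 1.96 in spleen Venus+ cells).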

How the data were processed

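RNA of 3 sorted populations was labelled with Cy5 and hybridized to 3D-Gene mouse oligonucleotide arrays, 1 a population. The scanner output holds, per the file headers, each spot's median intensity and its local background at 635 nm. The authors also deposited processed intensity values which, per the series' design text, had the blank level subtracted and the median detected signal set to 25. Here the mean of the middle 90% of 2736 blank spots was subtracted and spots above that mean plus 2 SDs were scaled to a median of 25. The result differed from the deposited table in 0 detection calls and by at most 4.05% at values of 10 or more. Faulty spots (2, 1 and 0 in bone marrow Venus+, spleen Venus+ and B220+ cells) were left out.

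Of 23473 probes, 16631 had a symbol, brought up to date with RefSeq (GRCm38.p6, names and gene order alone). Where a gene had several probes, its brightest stood for it. Named were the members, other immunoglobulin genes, the 5 nearest genes in 2 log2 ratios, and genes of 7 companion lists (122 of 135 with a named probe) by extreme ratio or direct role; companion genes named for contrast were picked after their values were seen. The members and lists were chosen with earlier results of these data known. The steps were tested on simulated data. Other settings were another background (limma 3.58.1, normexp), limit, scaling, source and probe rule. Python 3.11.15 and R 4.3.3 were used. No test was made, since each population has 1 array, whose number limits the precision.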

Additional observations from a re-analysis of the deposited data

How the results depend on the processing

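Each population has 1 array, so spread between mice and sorts is not known, and dim signals are limited by the blank level. The members' 2-fold calls changed under 0 of the 7 other settings. Local background gave no Vpreb3 value over B220+ cells, so those 2 calls rest on 6 settings. The deposited table and the mean of detected probes moved no result counted here. Neither was a check of the members' calls, since each member has 1 probe and the deposited table follows nearly the same recipe. No paired analysis was possible because each population has 1 array and no result comes from a test. The cause of the other shifts was not tested. Values are log2 ratios (for Ighe, log2 lower bounds), then counts of genes at least 2-fold apart.

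With the normexp background, bone marrow Venus+ over B220+ cells gave Ighm 7.22, IglV1 1.72, Vpreb3 -3.97 and Ighe 1.56, with 578 genes higher and 2142 lower. Spleen Venus+ over B220+ cells gave Ighm 5.66 and IglV1 2.12, with 410 higher and 1174 lower. Bone marrow over spleen Venus+ cells gave Ighm 1.56, IglV1 -0.41 and Ighe 1.33, with 62 higher and 315 lower, and 0 and 9 companion genes.

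With local background, bone marrow Venus+ over B220+ cells gave Ighm 9.34, IglV1 1.86 and Ighe 4.67, and spleen Venus+ over B220+ cells Ighm 6.16 and IglV1 1.86. Between the Venus+ sorts it gave Ighm 3.18, IglV1 0.00035, Vpreb3 0.30 and Ighe 3.74, with 779 genes and 12 companion genes higher.

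With blank level and limit taken from no-probe spots, bone marrow Venus+ over B220+ cells gave Ighm 10.02, IglV1 2.49, Vpreb3 -3.57 and Ighe 5.97. Spleen Venus+ over B220+ cells gave Ighm 8.34, IglV1 2.80 and Vpreb3 -3.23, with 2865 higher and 1077 lower, of which 72.7% were higher, and bone marrow over spleen Venus+ cells gave Ighe 5.76 and 3 companion genes higher.

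Scaled to the probes detected on all 3 arrays, bone marrow Venus+ over B220+ cells gave Ighm 9.84, IglV1 2.51, Vpreb3 -3.54 and Ighe 6.06. Bone marrow over spleen Venus+ cells gave Ighm 2.09, IglV1 0.10, Vpreb3 0.083 and Ighe 5.73, with 1250 higher and 916 lower, and 8 and 16 companion genes.

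With quantile normalization, bone marrow Venus+ over B220+ cells gave Ighm 9.34, IglV1 1.71, Vpreb3 -3.69 and Ighe 5.94, and spleen Venus+ over B220+ cells Ighm 7.55 and IglV1 2.17. Between the Venus+ sorts it gave IglV1 -0.46, Vpreb3 -0.011 and Ighe 6.21, with 1225 higher.

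In the usual setting 492 genes were higher and 1720 lower between the Venus+ sorts, with 5 and 25 companion genes.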
